A study of Rattus norvegicus with 13 samples.

Results

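The regions described here are the outer 2 Mb at both tips of the 20 rat autosomes, 40 chromosome ends in all. They were chosen by position alone: windows of 1000 bp lying in the first 2 Mb of a chromosome, called its first end, or in the last 2 Mb before its highest coordinate, called its last end. This gave 40000 windows at first ends and 40000 at last ends, 80000 of the 2782040 windows of the genome, with 2538741 windows in the rest of the autosomes. Coordinates are those of the rat assembly Rnor_6.0, the build named in the submitters' processing notes. The signal is from MeDIP-seq, in which an antibody against 5-methylcytosine precipitates DNA fragments that are then sequenced and counted. All 13 libraries came from outbred Hsd:Sprague Dawley rats of 2 lineages. In one, gestating F0 females were injected intraperitoneally each day from embryonic day 8 to 14 with the insecticide DDT (dichlorodiphenyltrichloroethane), and in the control lineage they received its vehicle, DMSO. Sperm was collected from the cauda epididymis of F3 males aged to 1 year, and morula embryos, the compact balls of cells that precede the blastocyst, were obtained by injecting such sperm into eggs of superovulated donor females (intracytoplasmic sperm injection). The maternal DNA of the morulae therefore came from donor eggs, and each embryo library is labelled as a pool of embryos. There were 3 libraries each of control morula, DDT morula and control sperm, and 4 of DDT sperm. The study asked which methylated sites of the sperm of an exposed lineage escape the erasure of methylation in the embryo.

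Chromosome tips end in telomere repeats, and the subtelomeric DNA next to them is rich in segmental duplications, repeats shared between chromosomes and, in mammals, often in genes and CpG-dense sequence. Several rat chromosomes carry their centromere at or close to one tip, so that a first end can lie near centromeric repeats while the last end of the same chromosome lies at the tip of the long arm. Mature sperm DNA is highly methylated outside CpG-dense promoters. After fertilization most paternal methylation is removed in the early embryo, before a new pattern is laid down around implantation. More methylated cytosines in a window, whether by a higher methylated fraction or by more CpG sites, give more MeDIP signal, and the signal does not separate the paternal from the maternal chromosomes of an embryo.

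Morula libraries held 37842198 to 65864303 counts. Among sperm libraries 5 held 104860839 to 193750804 counts, while control sperm replicate 3 held 30386626 and DDT sperm replicate 4 held 33684143. These sperm libraries stood apart: 20.2% and 18.8% of their first-end windows had no count, against 11.5%, 10.9%, 12.4%, 12.6% and 12.0% in the other sperm libraries. Signal is expressed in CPM, the count of a window per 1000000 counts in its library. The highest count of any window was 1681 to 1751 in morula and 1633 to 2000 in sperm libraries, although total counts differed more widely, so the CPM of the strongest windows falls as depth rises. No count in any of the 13 libraries was found in 9.87% of first-end windows, 5.45% of last-end windows and 3.91% of windows in the rest of the autosomes. The labels do not state that replicates came from separate animals, so p-values measure the spread between these samples, which may be technical.

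First ends carried more signal in morulae than in sperm, and last ends did so to a smaller extent. At first ends the mean signal per window was 0.428, 0.425 and 0.436 CPM in control morulae and 0.442, 0.431 and 0.431 CPM in DDT morulae. In control sperm it was 0.339, 0.330 and 0.361 CPM, and in DDT sperm 0.339, 0.340, 0.342 and 0.362 CPM. Each morula library lay above each sperm library, and the sperm libraries that stand apart were the highest of their groups. Those libraries were shallower than every morula library, and all other sperm libraries were deeper. Depth thus differed between tissues, and its part in these means was not tested. At last ends control morulae had 0.364, 0.363 and 0.366 CPM, DDT morulae 0.367, 0.366 and 0.366 CPM, control sperm 0.312, 0.306 and 0.327 CPM, and DDT sperm 0.313, 0.315, 0.318 and 0.325 CPM. In the rest of the autosomes the order was the reverse and the gap small, with 0.363 to 0.365 CPM in morulae and 0.369 to 0.373 CPM in sperm.

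To set each end against its own chromosome, an end level was taken for every library as the log2 ratio of the mean CPM of the end to the mean CPM of the rest of that chromosome, averaged over the 20 autosomes. The first-end level was 0.18, 0.17 and 0.21 in control morulae and 0.24, 0.19 and 0.19 in DDT morulae. It was -0.21, -0.26 and -0.10 in control sperm and -0.21, -0.21, -0.19 and -0.09 in DDT sperm. First ends thus stood above the rest of their chromosomes in each morula library and below it in each sperm library. Over the 6 morula libraries the level averaged 0.20 ± 0.02 (SD, n = 6) and over the 7 sperm libraries -0.18 ± 0.06 (SD, n = 7). Exact two-sided sign-flip permutation tests against 0 gave p = 0.0312 and p = 0.0156, each the smallest these numbers of libraries allow. Adjusted over 6 tests they were 0.0375 and 0.0312. Windows with no count in any library enter these means. Without them the first-end level of sperm was -0.0866 (exact sign-flip p = 0.0469). The sperm libraries then no longer all lay below 0. All libraries share the same windows and their sequence, so tests against 0 speak of these libraries only, not of chromosome ends as a class. Last ends were level with their chromosomes in morulae, at -0.00 ± 0.01 (SD, n = 6, exact permutation p = 0.531), and below them in sperm, at -0.28 ± 0.05 (SD, n = 7, exact permutation p = 0.0156, adjusted p = 0.0312).

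**Figure D1:**
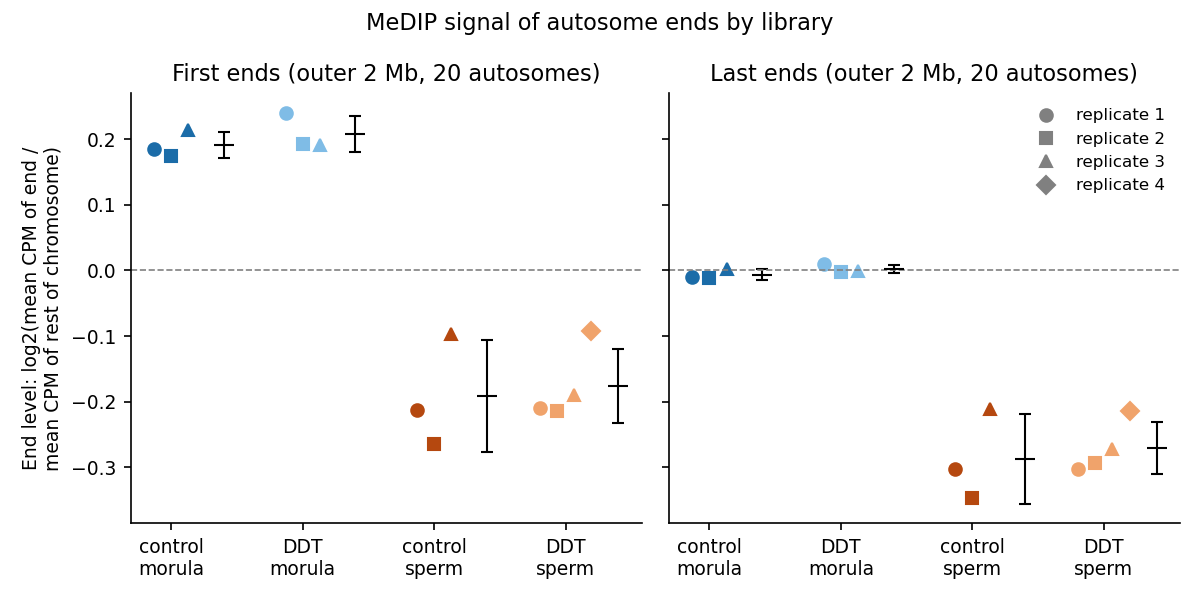
End level of each library, the log2 ratio of the mean CPM of the outer 2 Mb to that of the rest of the chromosome, averaged over 20 autosomes, for first ends (left) and last ends (right). Symbols mark replicates, and bars give the group mean ± SD. Morula libraries sit between 0.17 and 0.24 at first ends and near 0 at last ends, while all 7 sperm libraries lie below 0 at both.

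Last ends were lower than first ends in both tissues. Last minus first was -0.20 ± 0.02 in morulae (SD, n = 6, exact permutation p = 0.0312, adjusted p = 0.0375) and -0.09 ± 0.02 in sperm (SD, n = 7, exact permutation p = 0.0156, adjusted p = 0.0312). The first end was the higher one on 14 of 20 chromosomes in both morula groups and on 11 of 20 in both sperm groups. By group mean, 13 of 20 first ends lay above the rest of their chromosome in both morula groups and 6 of 20 in both sperm groups, against 8 and 2 of 20 last ends. The sperm difference between first and last ends turned in sign, to 0.04, when the median over windows replaced the mean, and to 0.06 over the outer 5 Mb.

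Between tissues the first-end level was higher in morulae by 0.38 in the control lineage (3 against 3 libraries, exact permutation p = 0.1) and by 0.38 in the DDT lineage (3 against 4, exact permutation p = 0.0286). At last ends the differences were 0.28 and 0.27 with the same exact permutation p-values, which are the smallest these designs allow. Over the outer 5 Mb the last-end differences were 0.03 and 0.02. After adjustment over 12 tests the p-values were 0.2 in the control lineage and 0.114 in the DDT lineage, so none passed 0.05, although the groups did not overlap in any of them. The gap between last and first ends was wider in morulae than in sperm by -0.10 in the control lineage and -0.11 in the DDT lineage, again without overlap and with the same exact permutation p-values. The lineages share no library.

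Chromosomes 2 and 7, whose first ends had the highest level in morulae, carried part of the elevation. In an alternative chosen after seeing the data, without these chromosomes, the first-end level was 0.10 ± 0.02 in morulae (SD, n = 6) and -0.26 ± 0.06 in sperm (SD, n = 7), and last minus first was -0.09 in morulae and -0.02 in sperm. The difference between morulae and sperm at first ends was then 0.36 in both lineages. Without the 0.1% of windows with the highest counts the level was 0.19 in morulae and -0.20 in sperm. The mean and the median told different things of the morula. By the median over windows, the first-end level was 0.02 in morulae and -0.50 in sperm, and the difference between tissues was 0.52 in the control lineage and 0.53 in the DDT lineage.

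The distribution of single windows at the ends differed between tissues in shape. In control morulae the median first-end window had 0.288 CPM and the median window of the rest 0.293 CPM, but the 90th percentile was 0.860 CPM at first ends against 0.571 CPM in the rest, and the 99th percentile 3.01 against 2.28 CPM. DDT morulae gave 0.877 against 0.590 CPM at the 90th percentile. At the 25th percentile first ends were lower than the rest, with 0.172 against 0.195 CPM in control and 0.143 against 0.185 CPM in DDT morulae. Morula first ends were thus like the rest in their median window, higher among their strongest windows and lower among their weak ones. Windows with no count in any library enter these percentiles and were more frequent at first ends. In sperm the median first-end window was below the rest, at 0.178 and 0.182 CPM in control and DDT sperm against 0.247 and 0.249 CPM. The 90th percentile, 0.840 and 0.841 CPM, was close to that of the rest, 0.835 and 0.827 CPM, and the 99th, 2.46 and 2.49 CPM, was above it, at 2.12 and 2.18 CPM. Leaving out windows with no count in any library, 28.5% ± 8.6 of first-end windows (SD, n = 3) and 28.7% ± 9.9 of last-end windows lay under 0.1 CPM in control sperm, against 22.6% ± 10.0 of the rest. The spread between control sperm libraries was wide, with 22.9% to 38.4% at first ends and 16.1% to 34.0% in the rest, so the ranges overlapped. Ends and rest were measured in the same libraries, and both the lowest and the highest value were larger at first ends. In control morulae the shares were 6.27% at first ends, 5.21% at last ends and 4.71% in the rest.

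Mean signal at first ends was highest close to the tip in morulae and changed less with distance in sperm. Within the first 0.5 Mb the mean was 0.516 ± 0.010 CPM in control morulae (SD, n = 3), 0.528 ± 0.014 CPM in DDT morulae (n = 3), 0.354 ± 0.018 CPM in control sperm (n = 3) and 0.361 ± 0.013 CPM in DDT sperm (n = 4). From 1.5 to 2 Mb it was 0.380 and 0.380 CPM in morulae and 0.339 and 0.342 CPM in sperm. The excess in morulae therefore shrank with distance from the tip. In steps of 100 kb, averaged over the 20 autosomes, the morula signal peaked 400 to 500 kb from the tip, at 0.571 CPM in control and 0.584 CPM in DDT morulae, where sperm had 0.382 CPM in both lineages. Over the 20 steps the ratio of morula to sperm ran from 1.03 to 1.51 (control lineage) and from 1.02 to 1.53 (DDT lineage). All morula libraries exceeded all sperm libraries in 20 of 20 steps of the control lineage and 19 of 20 of the DDT lineage. From 2 to 10 Mb they did so in 31.2% and 35.0% of the 80 steps. Most of these lay next to the ends, with 20 and 22 of 30 steps from 2 to 5 Mb. From 5 to 10 Mb there were 5 and 6 of 50. With medians in place of means, 29 and 27 of 30 steps separated from 2 to 5 Mb, and 15 and 8 of 50 beyond. Such separation was thus not particular to the outer 2 Mb. By the median over windows, control morulae had 0.293 CPM both in the outermost step and at 1900 to 2000 kb. Sperm medians were lower in the outermost step than at 1900 to 2000 kb, going from 0.232 to 0.137 CPM in the control and from 0.223 to 0.139 CPM in the DDT lineage. Ratios of medians ran from 1.26 to 2.14 (control lineage) and from 1.29 to 2.12 (DDT lineage), highest in the outermost step.

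At last ends both tissues varied along the outer 2 Mb, with a stronger stretch from 1 to 1.5 Mb (0.397 and 0.402 CPM in morulae, 0.345 and 0.344 CPM in sperm). Within 0.5 Mb of the tip the mean was 0.373 and 0.377 CPM in control and DDT morulae and 0.289 and 0.295 CPM in control and DDT sperm. Ratios ran from 0.940 to 1.37 (control lineage) and from 0.918 to 1.31 (DDT lineage), highest in the outermost step. Morula libraries all exceeded sperm libraries in 18 of 20 steps of the control lineage and 16 of 20 of the DDT lineage, against 0 of the 80 steps from 2 to 10 Mb in both, and in the innermost step sperm was the higher tissue in the mean of both lineages. By the median, last-end ratios ran from 1.17 to 1.75 (control lineage) and from 1.12 to 1.84 (DDT lineage), so the order of the innermost step was the opposite one. Beyond last ends sperm had the higher mean from 2 Mb on, with 0.343 and 0.340 CPM in morulae and 0.383 and 0.387 CPM in sperm at 2 to 3 Mb, and 0.350 and 0.345 against 0.460 and 0.454 CPM at 5 to 10 Mb. Beyond first ends the morula mean remained higher up to 5 Mb, with 0.378 CPM in both groups at 3 to 5 Mb against 0.357 CPM in both sperm groups. The sperm mean was higher at 5 to 10 Mb, with 0.393 and 0.391 against 0.365 and 0.364 CPM. By the median, 0 of the 80 steps from 2 to 10 Mb had all morula libraries below all sperm libraries, at both kinds of end and in both lineages. Beyond last ends 3 steps of the control and 0 of the DDT lineage had them above.

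**Figure D2:**
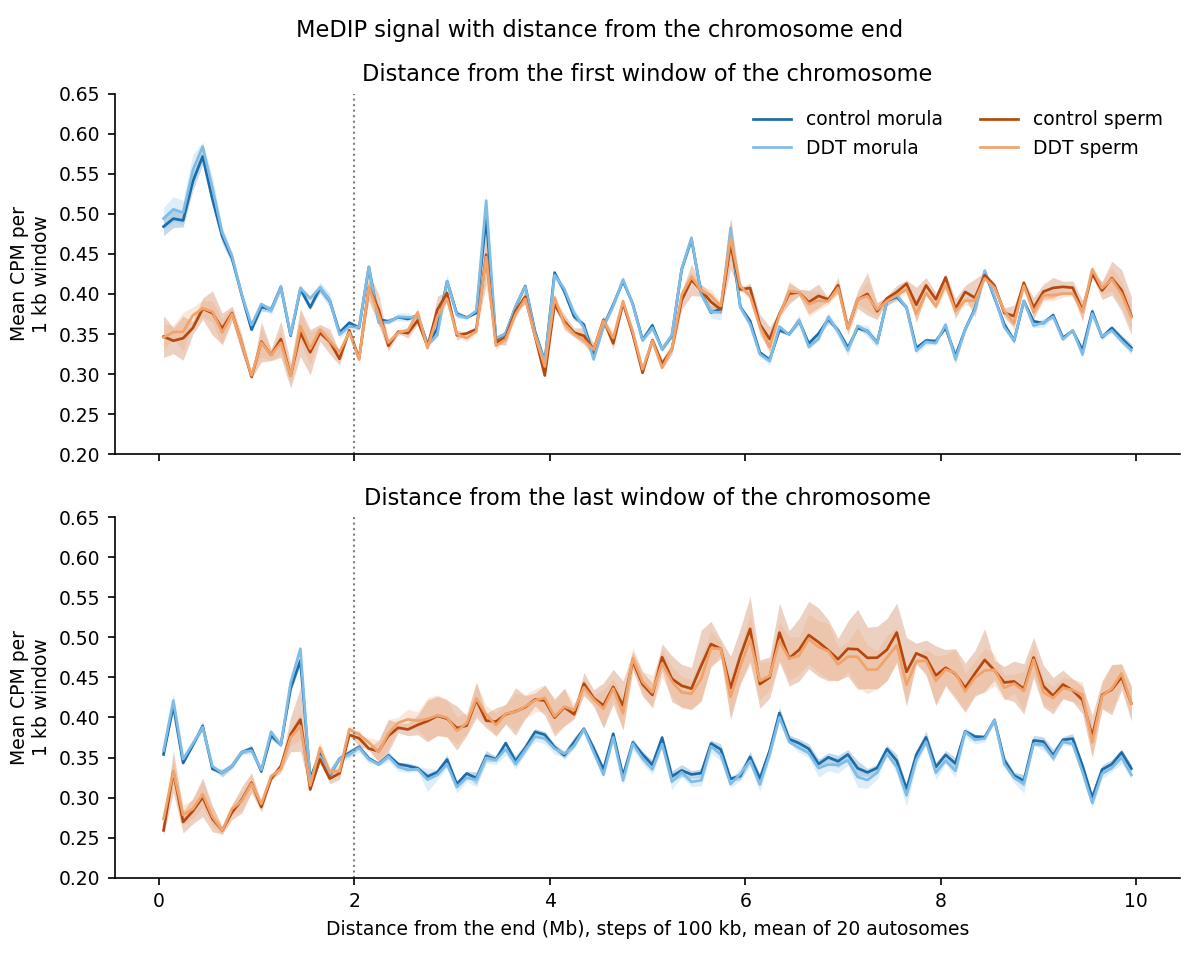
Mean CPM per 1 kb window against distance from the first window (top) and from the last window (bottom) of the chromosome, in steps of 100 kb averaged over 20 autosomes; lines are group means and bands ± SD over libraries, and the dotted line marks 2 Mb. Morula lines reach 0.571 and 0.584 CPM near the first tip, and sperm lines drop to 0.259 and 0.273 CPM at the last tip.

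Counts were next summed over each 2 Mb end, and over 2 Mb blocks of the rest of the chromosomes, and tested together by edgeR's quasi-likelihood test over 1403 blocks; an end was called when its p, adjusted by Benjamini-Hochberg over all blocks, was under 0.05. In the control lineage 31 of the 40 ends (77.5%) were higher in morulae than in sperm, where 41.5% of all blocks were, and 4 ends (10.0%) were lower, where 40.8% of all blocks were. Of the first ends 17 of 20 were higher and 2 lower, and of the last ends 14 and 2. In the DDT lineage 30 of 40 ends (75.0%) were higher, against 44.3% of all blocks, and 4 (10.0%) lower, against 43.5%. The median log2 difference of the ends was 0.29 in the control lineage and 0.30 in the DDT lineage, and 0.01 over all blocks in both. The same direction was called in both lineages for 33 ends, of which 30 were higher and 3 lower in morulae, 4 ends passed in neither, 3 in one lineage only and 0 in opposite directions. Agreement between lineages was not counted over all blocks, so these counts do not show whether it was particular to the ends. Without DDT sperm replicate 4 the number of lower ends in the DDT lineage was 7.

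**Figure D3:**
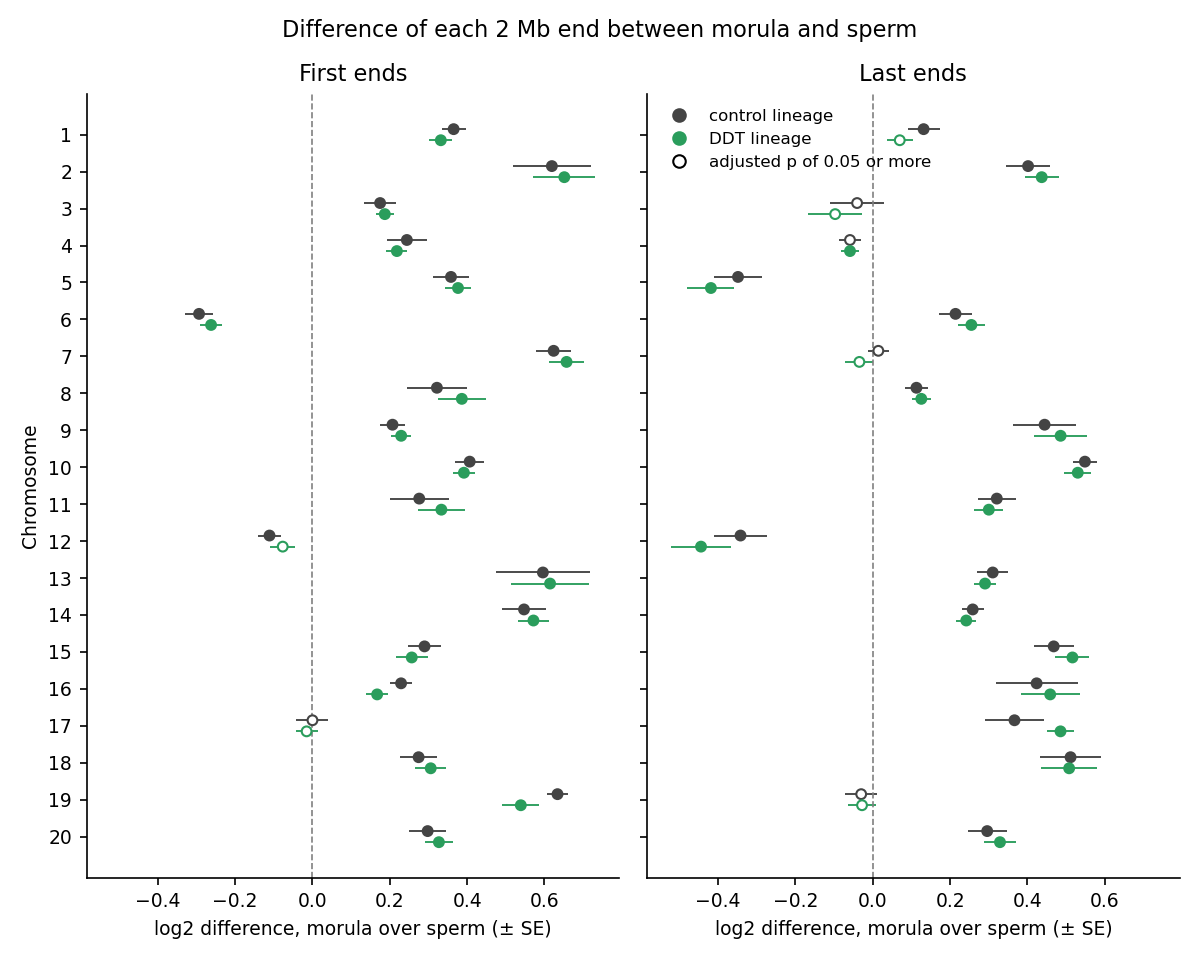
Log2 difference in signal, morula over sperm, of each 2 Mb end with its standard error, by chromosome, for first ends (left) and last ends (right); open circles did not pass an adjusted p of 0.05. Most ends lie right of 0 in both lineages, such as the first end of chromosome 7 at 0.62 and 0.66, and few lie left of it, such as the last end of chromosome 12 at -0.34 and -0.44.

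By the mean of both lineages, the largest differences were at the first ends of chromosomes 7, 2 and 13. At chr7:1-2000000 the signal was 0.733, 0.723 and 0.748 CPM in control morulae, 0.782, 0.742 and 0.753 CPM in DDT morulae, 0.462, 0.455 and 0.497 CPM in control sperm and 0.469, 0.464, 0.467 and 0.509 CPM in DDT sperm. Morulae and sperm did not overlap, and the log2 differences were 0.62 ± 0.05 and 0.66 ± 0.04 (SE) in control and DDT lineage, with edgeR adjusted p of 0.000203 and 1.37e-05. This end stood 1.02 and 1.07 above the rest of chromosome 7 on the log2 scale in control and DDT morulae and 0.35 and 0.37 above it in sperm. It was elevated in both tissues, and more so in morulae.

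The first end of chromosome 2 (chr2:1-2000000) had the strongest signal of all 40 ends in morulae. Libraries gave 0.802, 0.789 and 0.829 CPM in control morulae, 0.844, 0.816 and 0.817 CPM in DDT morulae, 0.491, 0.462 and 0.604 CPM in control sperm and 0.501, 0.488, 0.491 and 0.605 CPM in DDT sperm. The sperm libraries that stand apart were the highest of their groups here, still below each morula library. The log2 differences were 0.62 ± 0.10 and 0.65 ± 0.08 (SE), with edgeR adjusted p of 0.00214 and 0.00014, and the level against the rest of the chromosome was 1.11 and 1.13 in morulae and 0.56 and 0.59 in sperm.

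A different pattern was seen at chr13:1-2000000, the weakest end in both tissues. Control morulae had 0.276, 0.277 and 0.285 CPM, DDT morulae 0.304, 0.283 and 0.277 CPM, control sperm 0.169, 0.158 and 0.221 CPM, and DDT sperm 0.175, 0.167, 0.176 and 0.227 CPM. This end lay below the rest of its chromosome in all groups, with levels of -0.38 and -0.33 in morulae and -1.04 and -0.99 in sperm, and it was the deficit in sperm that was deeper. The log2 differences were 0.60 ± 0.12 and 0.61 ± 0.10 (SE, edgeR adjusted p = 0.00488 and 0.000588). At chr19:1-2000000, next to chromosomes 2 and 7 in morula signal, morulae had 0.572, 0.563, 0.585, 0.593, 0.581 and 0.580 CPM, control sperm 0.364, 0.367 and 0.364 CPM and DDT sperm 0.370, 0.422, 0.417 and 0.387 CPM. The end was above its chromosome in morulae (0.57 and 0.60) and below it in sperm (-0.24 and -0.12), and the differences between tissues were 0.63 ± 0.03 and 0.54 ± 0.05 (SE, edgeR adjusted p = 9.24e-05 and 3.37e-05).

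Ends that ran the other way were few. The last end of chromosome 12, chr12:50717001-52717000, had 0.341, 0.355 and 0.334 CPM in control morulae and 0.329, 0.342 and 0.342 CPM in DDT morulae, but 0.444, 0.459 and 0.386 CPM in control sperm and 0.479, 0.482, 0.476 and 0.387 CPM in DDT sperm. All sperm libraries lay above all morula libraries, the pair that stands apart being the lowest of the sperm. Log2 differences were -0.34 ± 0.07 and -0.44 ± 0.08 (SE, edgeR adjusted p = 0.00482 and 0.00077). At chr5:171708001-173708000, the last end of chromosome 5, they were -0.35 ± 0.06 and -0.42 ± 0.06 (SE), with 0.317 to 0.338 CPM in morulae and 0.378 to 0.448 CPM in sperm. The only first end lower in morulae in both lineages was that of chromosome 6, chr6:1-2000000, with 0.387, 0.385 and 0.381 CPM in control morulae, 0.375, 0.379 and 0.371 CPM in DDT morulae, 0.477, 0.475 and 0.443 CPM in control sperm and 0.455, 0.454, 0.445 and 0.430 CPM in DDT sperm. Its log2 differences were -0.29 ± 0.04 and -0.26 ± 0.03 (SE, edgeR adjusted p = 0.000934 and 8.71e-05).

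**Figure D4:**
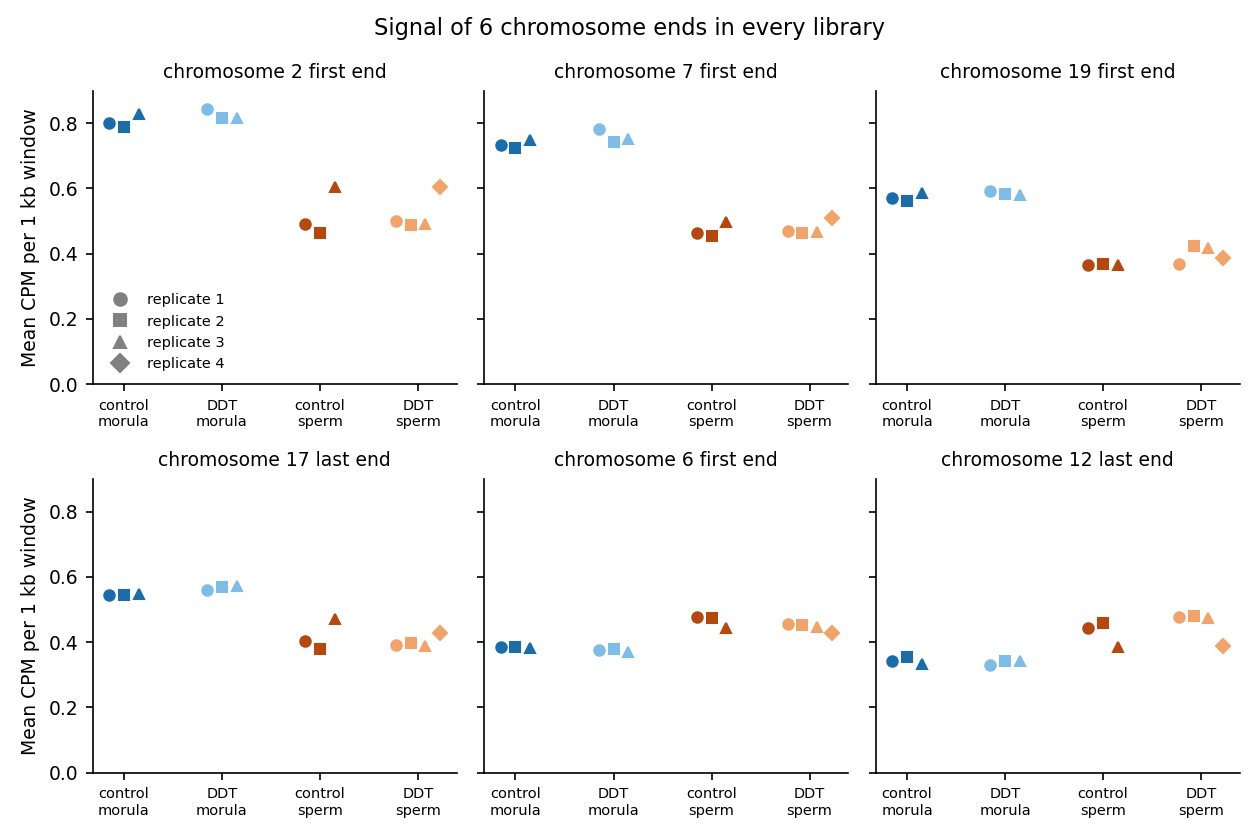
Mean CPM per 1 kb window of 6 chromosome ends in each of the 13 libraries, with symbols for the replicates and an axis from 0. Morula libraries lie above sperm libraries at the first ends of chromosomes 2, 7 and 19 and the last end of chromosome 17, and below them at the first end of chromosome 6 and the last end of chromosome 12.

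In sperm the strongest end was chr12:1-2000000, with 0.545, 0.555 and 0.569 CPM in control and 0.556, 0.562, 0.539 and 0.571 CPM in DDT sperm, followed by the first ends of chromosomes 2 and 7. Morulae had 0.517 to 0.540 CPM there, and all but 1 of the sperm libraries, DDT sperm replicate 3, exceeded every morula library. The difference was -0.11 ± 0.03 in the control lineage (SE, edgeR adjusted p = 0.0144) and -0.08 ± 0.03 in the DDT lineage (adjusted p = 0.0526). In the control lineage it no longer passed without any one of the morula libraries (adjusted p of 0.0653 to 0.0945), and in the DDT lineage it passed without the 0.1% of windows with the highest counts (adjusted p = 0.0109), without DDT sperm replicate 3 or 4 (0.0225 and 0.0255) and by DESeq2 (0.00933). After chromosome 13, the weakest ends in sperm were chr15:109247001-111247000, with 0.223 to 0.254 CPM against 0.328 to 0.338 CPM in morulae, and chr14:1-2000000, with 0.220 to 0.254 CPM against 0.341 to 0.372 CPM. In morulae the weakest after chromosome 13 were the last ends of chromosomes 3 and 4, chr3:175700001-177700000 with 0.295 to 0.314 CPM and chr4:182227001-184227000 with 0.310 to 0.317 CPM. At the last end of chromosome 3 the tissues did not differ past the test (log2 differences of -0.04 and -0.10, edgeR adjusted p = 0.6 and 0.221), and control sperm replicate 3, at 0.285 CPM, lay below the other control sperm libraries, at 0.328 and 0.341 CPM. Without it the difference was -0.12 (adjusted p = 0.00208), and without control sperm replicate 2 it was 0.02 (adjusted p = 0.818). Without DDT sperm replicate 4 the DDT lineage gave -0.16 (adjusted p = 7.73e-05). At the last end of chromosome 4 the differences were -0.06 in both lineages (adjusted p = 0.0931 and 0.0352), and the call in the DDT lineage was lost without any one of its libraries other than DDT sperm replicate 4 (adjusted p of 0.0604 to 0.109) and under library-size scaling (0.0994). In the control lineage it passed without control sperm replicate 3 (adjusted p = 0.0257) and by DESeq2 (0.0329).

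The pattern of levels among the 40 ends was nearly the same in both lineages of a tissue. Across ends, which are not replicates, the levels of control and DDT morulae correlated at r = 0.999 and those of control and DDT sperm at r = 0.993, whereas morula and sperm groups correlated at 0.649 to 0.678. All groups share the same windows and their base composition.

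At the scale of single 1 kb windows, the control lineage had 17989 end windows with more and 4816 with less signal in morulae, of 71422 tested (edgeR, adjusted p under 0.05 over all 2582315 tested windows). A window was tested when its counts, summed over the libraries compared, reached an average of 5 per library. Single libraries could hold fewer. That was 25.2% higher, where 16.9% of all windows were, and 6.74% lower, where 12.3% of all windows were. The DDT lineage gave 17981 higher and 6969 lower of 67883 tested, 26.5% against 18.3% of all windows and 10.3% against 16.6%. First ends had 26.8% higher and 6.51% lower and last ends 23.7% and 6.96% in the control lineage, and 27.9% and 9.79%, and 25.2% and 10.7%, in the DDT lineage. Ends were thus richer in windows higher in morulae and poorer in windows lower in morulae than the genome as a whole, at both kinds of end. The median log2 difference of tested end windows was 0.40 in the control lineage, against 0.09 over all windows, and 0.31 in the DDT lineage, against -0.01. Library-size scaling moved the median over all windows to 0.18 and 0.13, and the counts of end windows to 20641 higher and 4098 lower, and 20806 and 5205. Those counts were 28.9% and 5.74% of tested end windows in the control lineage, against 19.7% and 10.5% of all windows. In the DDT lineage they were 30.6% and 7.67%, against 21.5% and 12.6%. Of the 8578 and 12117 end windows that were not tested, 6127 had no count in any of the 13 libraries, and the other 2451 and 5990 had few.

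The number of windows depended on single libraries. In the control lineage 9615, 10846 and 10746 end windows were higher and 1501, 1854 and 1801 lower without control morula replicates 1, 2 and 3. Without control sperm replicates 1 and 2 the counts were 11120 and 11458 higher and 2970 and 2758 lower, and without control sperm replicate 3 they were 23076 and 10082. In the DDT lineage 4382, 3894 and 3787 windows were lower without DDT morula replicates 1, 2 and 3, and 13284, 12706 and 12633 higher. The shares over all windows moved along: without control morula replicate 1, the setting with fewest calls in the control lineage, 13.6% of end windows were higher and 2.12% lower, against 8.55% and 4.13% of all windows. Without control sperm replicate 3 these were 32.1% and 14.0%, against 21.9% and 23.0%. Without DDT morula replicate 3 they were 18.9% and 5.68%, against 12.5% and 9.66%.

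Windows higher in morulae were most frequent next to the tip. In the control lineage 33.8% of tested windows were higher within 0.5 Mb of the first tip and 23.2% from 1.5 to 2 Mb, and at last ends the share went from 27.6% to 18.5%. The DDT lineage went from 34.9% to 24.0% at first ends and from 29.5% to 20.0% at last ends. Lower windows were rarest next to the tip, at 4.22% of windows within 0.5 Mb of the first tip and 3.95% within 0.5 Mb of the last tip in the control lineage, against 7.55% and 10.2% from 1.5 to 2 Mb. Of 67772 end windows tested in both lineages, 11310 (16.7%) were higher in both, 3105 (4.58%) lower in both and 6 opposite. Over all windows tested in both lineages 10.3% were higher and 8.62% lower in both.

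Ends hold more windows of low sperm signal than the rest. Tested windows of low sperm signal were often higher in morulae wherever they lay. Windows were therefore compared within 10 classes of equal size. The classes were formed from sperm libraries of the lineage not being tested. This keeps the libraries of a class apart from those of its test, but leaves the minimum count for testing in place. A window with few sperm counts reached that minimum only with enough morula counts. The shares of higher windows in the lowest classes, at the ends and in the rest, thus depend partly on the minimum. How far they do so was not tested, and the weighted shares below include these classes. Of first-end windows 13.3% fell in the lowest class and of last-end windows 14.3%, against 9.88% of the rest, in the control lineage. The share of windows higher in morulae was above that of the rest in 10 of 10 classes at first ends and in 10 of 10 at last ends, in both lineages. In the fifth class it was 14.9% at first ends and 8.13% at last ends against 5.82% in the rest, and in the highest class 8.12% and 3.93% against 2.92%, in the control lineage. In the DDT lineage the highest class gave 12.7% and 9.50% against 6.38%. Weighted to the class mix of the rest, 23.5% of first-end and 19.0% of last-end windows would be higher in the control lineage, where 16.6% of the rest were, and 24.7% and 20.6% in the DDT lineage, where 18.3% of the rest were. Windows lower in morulae were rarer at the ends in the classes that hold most of them: in the highest class 18.8% at first ends and 23.9% at last ends against 36.3% of the rest in the control lineage, and 32.1% and 46.3% against 61.3% in the DDT lineage.

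**Figure D5:**
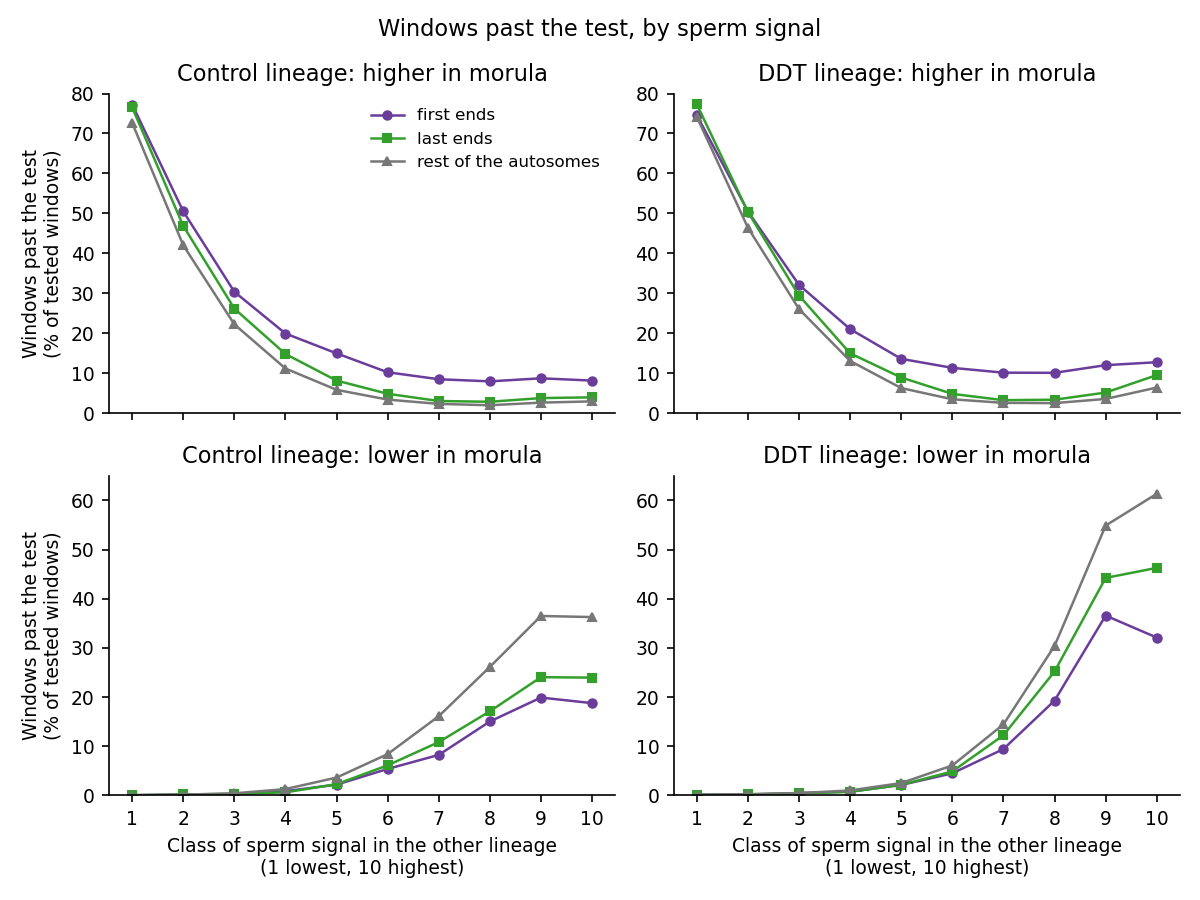
Share of tested 1 kb windows past the test as higher (top) or lower (bottom) in morulae, in percent, by class of sperm signal in the other lineage from 1 (lowest) to 10 (highest), for the control lineage (left) and the DDT lineage (right). At first ends and last ends the share of higher windows lies above that of the rest of the autosomes in each class, and the share of lower windows lies below it in the highest classes, at 18.8% and 23.9% against 36.3% in the control lineage.

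Neighbouring windows past the test in one direction, at most 1 kb apart, were merged. In the control lineage this gave 8056 regions higher in morulae at the ends, 121 of them with 10 or more such windows, and 2975 lower regions, 16 of them as long. The DDT lineage gave 8425 and 98, and 4224 and 30. Per 1000 tested windows of the control lineage, higher regions numbered 112.8 at the ends and 89.0 in the rest of the autosomes, and those of 10 or more windows numbered 1.69 and 0.558. For the DDT lineage these were 124.1 and 100.6, and 1.44 and 0.508. Lower regions were fewer per 1000 tested windows at the ends, at 41.7 against 69.7 for the control and 62.2 against 88.0 for the DDT lineage. These differences from the rest were not tested. The widest higher region lay at the first end of chromosome 2, at chr2:579001-629000 in the control lineage and chr2:579001-640000 in the DDT lineage. Over the shorter of these stretches the mean was 0.786 ± 0.067 CPM in control morulae (SD, n = 3), 0.812 ± 0.035 in DDT morulae (n = 3), 0.300 ± 0.066 in control sperm (n = 3) and 0.286 ± 0.034 in DDT sperm (n = 4). A region of 43 kb at chr1:475001-518000 had the same bounds in both lineages, with 0.606 ± 0.040 and 0.686 ± 0.055 CPM in morulae against 0.267 ± 0.071 and 0.304 ± 0.059 CPM in sperm. Stronger signal was held by chr19:372001-411000, with 2.21 ± 0.02 and 2.33 ± 0.04 CPM in morulae against 0.916 ± 0.118 and 1.11 ± 0.24 CPM in sperm, and chr18:87989001-88030000 at the last end of chromosome 18 had 1.13 ± 0.05 and 1.16 ± 0.06 against 0.486 ± 0.073 and 0.555 ± 0.070 CPM.

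Regions lower in morulae reached smaller widths, 28 and 33 kb against 50 and 61 kb. Of the 5 widest in each lineage, 3 lay at the first end of chromosome 6 in both. The widest was chr6:880001-908000 in the control lineage, with 0.373 ± 0.035 CPM in control morulae and 0.883 ± 0.249 CPM in control sperm, and chr6:824001-857000 in the DDT lineage, with 0.340 ± 0.047 CPM in DDT morulae and 0.723 ± 0.113 CPM in DDT sperm. At chr18:296001-323000, called in both lineages with the same bounds, morulae had 0.322 ± 0.013 and 0.280 ± 0.021 CPM and sperm 0.969 ± 0.228 and 0.815 ± 0.077 CPM. No annotation of this build was used, so these regions are given by position only.

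Among single windows the largest differences between tissues stood at the first end of chromosome 8. At chr8:181001-182000 DDT morulae had 18.4, 12.7 and 16.1 CPM and DDT sperm 0.0357, 0.0668, 0.00779 and 0.297 CPM, a log2 difference of 7.86 ± 0.48 (SE, edgeR adjusted p = 5.54e-11). Control morulae had 7.83, 12.0 and 14.0 CPM against 0.124, 0.0981 and 0.0987 CPM in control sperm. The neighbouring window, chr8:182001-183000, differed by 6.68 in the control and by 6.65 in the DDT lineage. Reads of mitochondrial DNA moved with these values: they made up 0.0302% to 0.0608% of counts in morula libraries and 0.000905% to 0.00453% in sperm libraries, and their part in the result was not tested. Leaving out both windows, the first end of chromosome 8 still had 0.383 and 0.384 CPM in control and DDT morulae against 0.310 and 0.301 CPM in sperm, compared with 0.392 and 0.396 CPM against 0.310 and 0.301 CPM with them.

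The other windows of smallest p that were higher in morulae lay at the first ends of chromosomes 7 and 2, the ends with the strongest morula signal. At chr7:504001-505000 control morulae had 5.04, 6.03 and 5.25 CPM and DDT morulae 5.71, 5.74 and 6.44 CPM, while sperm had 0.926, 1.18 and 0.527 CPM in the control and 0.572, 0.439, 0.615 and 0.564 CPM in the DDT lineage. The groups did not overlap, and log2 differences were 2.44 and 3.32 (edgeR adjusted p = 0.00032 and 7.26e-09). At chr7:381001-382000 morulae had 1.72 to 2.12 CPM and sperm 0 to 0.179 CPM, with differences of 3.81 and 3.79 (adjusted p = 0.000153 and 2.16e-08). Further windows were chr2:1229001-1230000 (3.59 and 5.01) and chr2:463001-464000 (3.75 and 4.48), with 0.850 to 1.60 and 0.765 to 1.08 CPM in morulae. Next to the tip, chr7:47001-48000 differed by 4.28 in the control lineage and 2.50 in the DDT lineage. DDT sperm had 0.0668 to 0.152 CPM there, and control sperm 0.0310 to 0.0345 CPM from only 5, 6 and 1 counts. DDT and control sperm did not differ past the test in this window (edgeR adjusted p = 0.843). Farther in, chr7:1697001-1698000 differed by 4.16 and 3.52.

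Windows lower in morulae with the smallest p lay mostly at last ends. At chr5:172715001-172716000 control morulae had 0.258, 0.425 and 0.204 CPM and control sperm 1.40, 1.78 and 1.61 CPM, a log2 difference of -2.54 ± 0.36 (SE, edgeR adjusted p = 0.000386), and the DDT lineage differed by -1.74 (adjusted p = 0.000548). At chr5:172297001-172298000 DDT morulae had 0.291, 0.368 and 0.200 CPM and DDT sperm 1.71, 1.63, 1.48 and 2.23 CPM, with differences of -2.04 in the control lineage and -2.72 in the DDT lineage. Both lie in the last end of chromosome 5, one of the 3 ends that were lower in morulae in both lineages. The remaining windows of the control lineage were chr8:131957001-131958000, chr12:51411001-51412000 and chr12:1972001-1973000, with differences of -2.64, -2.79 and -2.46, and -0.96, -0.97 and -1.81 in the DDT lineage. Those of the DDT lineage were chr8:131740001-131741000, chr19:1117001-1118000 and chr4:184089001-184090000, with differences of -2.82, -2.67 and -2.60, and -1.42, -1.65 and -1.50 in the control lineage. Each of these windows passed the test in both lineages.

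DDT and control lineages were compared within each tissue to see whether the ancestral exposure left a difference at the ends. In morulae the end levels of both groups overlapped, with differences of 0.02 at first ends, 0.01 at last ends and -0.01 for last minus first (DDT minus control, 3 against 3, exact permutation p = 0.5, 0.3 and 0.7, adjusted over 12 tests 0.75, 0.514 and 0.857). These comparisons use the same libraries as those between tissues. By edgeR 0 of the 40 ends passed (0.0% of all blocks were higher and 0.0% lower), with 4 ends at an unadjusted p under 0.05 (75 of 1403 blocks) and a smallest adjusted p of 0.463, and DESeq2 passed 0 ends. Of the 40 ends 32 had a difference above 0, with a median of 0.01, against 751 of 1403 over all blocks.

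The end of smallest p in morulae was chr17:88844001-90844000, the last end of chromosome 17, with 0.544, 0.545 and 0.546 CPM in control and 0.559, 0.569 and 0.574 CPM in DDT morulae. The groups did not overlap, and the log2 difference was 0.06 (unadjusted p = 0.000857, adjusted p = 0.463 by edgeR over all blocks). Control sperm had 0.405, 0.378 and 0.471 CPM there and DDT sperm 0.393, 0.397, 0.388 and 0.428 CPM, a difference of -0.06 that turned to 0.04 without control sperm replicate 3 and to 0.01 without both libraries that stand apart. At chr12:1-2000000 the difference in morulae was 0.04 (unadjusted p = 0.0257), and the lowest were -0.03 at both chr6:1-2000000 and chr17:1-2000000 (unadjusted p = 0.0411 and 0.0727). None of these passed after adjustment over all blocks.

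Of 71315 end windows tested in morulae by edgeR, 0 passed as higher, as over all windows (0.0%), and 0 as lower, where 3.89e-05% of all windows did, and 3402 (4.77%) had an unadjusted p under 0.05, where 4.91% of all windows did. Those of smallest p did not overlap between groups by their libraries. At chr15:110000001-110001000 control morulae had 0.380, 0.476 and 0.388 CPM and DDT morulae 0.0529, 0.0490 and 0.125 CPM (log2 difference -2.39, adjusted p = 0.752). At chr18:87050001-87051000 they had 0.152, 0.102 and 0.184 against 0.476, 0.613 and 0.375 CPM (1.77, adjusted p = 0.811), at chr9:406001-407000 0.0304, 0.0850 and 0.0409 against 0.159, 0.417 and 0.275 CPM (2.43, adjusted p = 0.898), and at chr12:51756001-51757000 1.02, 1.19 and 0.777 against 0.766, 0.196 and 0.325 CPM (-1.22, adjusted p = 0.766). The last of these passed without DDT morula replicate 1 (-1.94, adjusted p = 0.00845). DESeq2 was not run on single windows.

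In sperm the end levels of the lineages overlapped as well, with differences of 0.02 at first ends, 0.02 at last ends and 0.00 for last minus first (DDT minus control, 4 against 3, exact permutation p = 0.8, 0.714 and 0.857, each 0.857 after adjustment). Of the 40 ends 0 passed edgeR's test in sperm (0.0% of all blocks higher, 0.0% lower), with 2 at an unadjusted p under 0.05 (38 of 1403 blocks), and DESeq2 passed 0. Among 66507 end windows 0 were called higher and 0 lower (0.0% and 0.0% over all windows), with 4044 (6.08%) at an unadjusted p under 0.05, where 5.93% of all windows were.

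The end of smallest p was chr19:1-2000000, where the library values above differed by 0.13 (unadjusted p = 0.0307, adjusted p = 0.999 by edgeR over all blocks). DDT sperm replicate 1, at 0.370 CPM, lay close to the control libraries, at 0.364 to 0.367 CPM, and the other DDT sperm libraries, at 0.387 to 0.422 CPM, above them. Next was chr16:1-2000000 with 0.07 (unadjusted p = 0.0483), and the lowest were chr6:1-2000000 and the last end of chromosome 17, both with -0.06. Of single windows, chr8:132196001-132197000 had 0.269, 0.222 and 0.263 CPM in control and 0.902, 0.877, 0.880 and 0.653 CPM in DDT sperm (log2 difference 1.81, edgeR adjusted p = 0.843), without overlap. At chr11:90441001-90442000, close to the last tip, control sperm had 0.0415, 0.0155 and 0 CPM and DDT sperm 0.107, 0.505, 0.654 and 0.148 CPM (3.96, adjusted p = 0.843). Lower in DDT sperm were chr1:282382001-282383000, with 12, 19 and 2 counts in control and 0, 1, 1 and 0 in DDT sperm, and chr19:61170001-61171000, with 15, 23 and 3 against 2, 2, 0 and 1 counts.

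The count of calls in sperm changed when both libraries that stand apart were left out. Without control sperm replicate 3 and DDT sperm replicate 4 together, 2 control libraries were compared with 3 DDT libraries, and 4547 end windows were called higher and 1972 lower in DDT sperm. These were 6.62% and 2.87% of the end windows tested, against 6.6% and 3.81% of all windows, so higher windows were no more frequent at the ends than elsewhere. All 4 single windows above then passed (adjusted p of 1.36e-09, 4.93e-09, 0.00172 and 0.0018 in the order given). Of the 40 ends 4 passed as higher, the last end of chromosome 1 (0.08) and the first ends of chromosomes 4 (0.08), 16 (0.07) and 19 (0.14), and 0 as lower, where 9.27% and 5.99% of all blocks passed. In this setting the control libraries held 144738902 and 193750804 counts and the DDT libraries 104860839 to 128386419, so depth and lineage cannot be told apart. Without control sperm replicate 3 alone, and without DDT sperm replicate 4 alone, 0 end windows passed.

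Whether the difference between DDT and control itself differed between morulae and sperm was tested by an interaction term over all 13 libraries. It passed for 0 of the 40 ends by edgeR, as for 0 of all 1403 blocks. An unadjusted p under 0.05 was reached by 0 of the ends, against 25 of 1403 blocks. The smallest unadjusted p was 0.113 at the ends and 0.00622 over all blocks.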

How the data were processed

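MeDIP-seq counts were analysed in 13 libraries. The deposited tables give raw read counts per 1000 bp window of Rnor_6.0, and FastQC, Trimmomatic, Bowtie2, SAMtools and edgeR are named in the submitters' processing notes; the handling of duplicate reads and of reads that map to several places is not given in the sources used here. This matters at chromosome ends, which hold repeats and duplications. Another 13 columns of values per sample were not used. CPM was taken over each library's column sum. Chromosome ends were cut by position, and the members and lists were chosen with earlier results of these data known.

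Windows whose counts summed to 5 or more times the number of libraries were tested with edgeR 4.0.16 (quasi-likelihood, TMM scaling, R 4.3.3), with p adjusted by Benjamini-Hochberg over all tested windows and called under 0.05; 2 Mb blocks, with the 40 ends among them, were tested likewise, and each standard error was derived from the log2 difference and its test. End levels were compared by exact two-sided permutation tests over libraries. The scripts were tested on simulated data. Values were computed with Python 3.11.15 and numpy 2.4.6. Named ends were the 3 highest and 3 lowest by signal in each tissue and by difference between tissues, and, for DDT against control, the 2 of smallest p per direction. Named windows were the 4 of smallest p per direction whose tissues did not overlap, and the 2 per direction for DDT against control, none within 10 kb of another. Alternatives were other scalings, DESeq2 1.42.0 on the blocks, other minimum counts, other end widths, the median, thinning, a replicate block and leaving out libraries.

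Replicates with the same number share no stated animal or batch. Their deviations from the group means correlated at 0.25, 0.82 and 0.79 between control morulae and control sperm. Between DDT and control sperm, which are different lineages, they correlated at -0.06, 0.65 and 0.46, and between DDT and control morulae at -0.56, 0.49 and -0.65. Replicates of unlike number were not compared, so these values cannot show whether samples are paired. Between DDT morulae and DDT sperm the deviations correlated at 0.16, 0.40 and -0.02. No samples were taken as paired in the main tests.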

Additional observations from a re-analysis of the deposited data

Results flagged for a closer look

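In groups of 4 libraries, which only DDT sperm is, 8 of 30 reported values had 1 library far from the others, where chance flags about 1 in 20. In all 8 it was replicate 4, one of the sperm libraries that stand apart. It was higher than the other DDT sperm libraries at the first ends of chromosomes 2 (0.605 CPM), 7 (0.509 CPM), 13 (0.227 CPM) and 14 (0.248 CPM). It was lower at the last ends of chromosomes 3 (0.282 CPM), 5 (0.379 CPM) and 12 (0.387 CPM), and in the window chr8:132196001-132197000 (0.653 CPM). At each of these 7 ends control sperm replicate 3, the other library that stands apart, lay on the same side of the other libraries of its group.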

How the results depend on the processing

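The differences in end level between morulae and sperm kept their direction under each alternative, but the last-end ones fell from 0.280 and 0.273 to 0.0299 and 0.0202 over the outer 5 Mb, where the last-end level of sperm was -0.0523. Those between DDT and control sperm, which lay near 0, changed direction under some. By the median over windows the latter were -0.0117 at first ends and -0.0114 at last ends, and last minus first was 0.00763 for DDT against control morulae and 0.0380 in sperm. Over the outer 5 Mb last minus first was 0.0634 in sperm, and the last-end difference between DDT and control morulae was -0.00165. The last-end level of morulae, -0.00214 in the main setting, was -0.0369 by the median, -0.0164 without the 0.1% highest windows, -0.0257 over the outer 1 Mb and -0.0279 over the outer 5 Mb. It was 0.0236 without windows at 0 in all libraries, 0.00172 with ends pooled over chromosomes and 0.0105 without chromosomes 2 and 7, an alternative chosen after seeing the data. By the median and without windows at 0 in all libraries it passed the exact sign-flip test (adjusted p = 0.0375 in both), in opposite directions. Without windows at 0 in all libraries the sperm level was -0.0866 at first ends, where not all sperm libraries lay below 0, and -0.165 for last minus first. The 8 profile values at the outermost and innermost steps were larger in favour of morulae by the median. Without both sperm libraries that stand apart the sperm levels were -0.218 at first ends, -0.303 at last ends and -0.0852 for last minus first, where 5 libraries cannot pass the exact test. That setting also gave the 4547 higher and 1972 lower windows and the 4 higher ends reported for DDT against control sperm. Thinned to the smallest library, with fewer counts and windows tested, the control lineage had 5884 higher and 1514 lower end windows. These were 10.2% and 2.62% of tested end windows, against 5.83% and 4.68% of all windows. The DDT lineage had 10860 and 4137, or 18.7% and 7.12%, against 12.0% and 11.4% of all windows.

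With the replicate number as a block, DDT minus control sperm was -0.0128 at first ends and -0.00271 at last ends. The block changed no other direction of an end level and no count of ends or windows by over 1.5 times. Control morulae against control sperm gave 31 higher and 4 lower ends, and 15470 higher and 4254 lower windows. These windows were 21.7% and 5.96% of tested end windows, against 14.3% and 10.8% of all windows. DDT morulae against DDT sperm gave 31 and 6 ends, and 20938 and 9459 windows. Their shares were 30.8% and 13.9% of tested end windows, against 21.3% and 21.5% of all windows.

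Leaving out 1 library in turn, end windows higher in control morulae ranged from 9615 to 23076 and lower ones from 1501 to 10082, lower ones in the DDT lineage from 3787 to 9343, lower ends in the DDT lineage from 3 to 7, and lower windows in DDT against control morulae from 0 to 1. The morula level ranged from 0.19 to 0.20 at first ends and stayed at -0.20 for last minus first, where 5 libraries cannot pass. DDT minus control ranged from -0.0143 to 0.00478 for last minus first in morulae, and in sperm from -0.0216 to 0.0621 at first ends, from -0.0136 to 0.0536 at last ends and from -0.00852 to 0.0101 for last minus first. For DDT against control sperm the last end of chromosome 17 ranged from -0.118 to 0.0364, and was 0.0277 without the 0.1% highest windows and 0.00802 without both libraries that stand apart. Control morulae against control sperm ranged from -0.123 to 0.0168 at the last end of chromosome 3. Except where a sentence names one, the cause was not tested. Depth limits the calls in weak windows: 2451 end windows of the control and 5990 of the DDT lineage held a count in some library but too few to be tested.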
